A study of Mus musculus with 2 samples.

Results

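The genes described here encode the BMP and TGF-beta pathway of the mouse: 25 secreted ligands, 10 receptors, 8 Smads and 4 secreted antagonists. They were taken by gene symbol from a list of 47, and all 47 were found among the 21728 protein-coding genes of chromosomes 1 to 19 and X. The list sets no threshold on a measured value, but it was drawn up with earlier results of these data known. DNase-seq, which maps DNA that the nuclease DNase I can reach in nuclei, was run on whole healthy embryos of the B6NCrl strain at 11 day, male and female pooled, as 2 biological replicates. Both replicates carry 1 donor entry and separate biosample entries, there is no other genotype, treatment or age, and the number of embryos in each pool is not stated in the labels. The replicate 1 list held 204697 peaks and the replicate 2 list 231103, each 150 bp wide. The lists come without read counts, so sequencing depth is unknown, and whether replicate 2 has more open sites or a deeper library cannot be told apart. Of 25 tissue marker genes, 19 showed a peak at the promoter in each replicate, a share near the 70.3% of all protein-coding genes. The 6 without one were the markers of macrophages, lymphocytes, trophoblast and decidua (Csf1r, Spi1, Cd3e, Cd4, Prl3d1 and Prl8a2).

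Ligands of this family are secreted dimers that draw together type I and type II receptor kinases on the cell surface. The type I kinase then phosphorylates receptor Smads, which join the common Smad and enter the nucleus, where the complex binds short sequence elements near target genes. Inhibitory Smads and secreted antagonists damp the signal inside and outside the cell, and in the embryo the balance of ligand and antagonist patterns the limb bud, heart, neural tube and body axis.

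A gene's promoter was called accessible in a replicate when any of its annotated transcription start sites (TSSs) had a peak no more than 500 bp away. By that measure 43 of the 47 genes had an accessible promoter in both replicates, beside 70.3% of all protein-coding genes. Replicate 1 gave 43 genes (71.2% of all genes) and replicate 2 gave 45 (72.1%). All 10 receptors, all 8 Smads and all 4 antagonists were among them, and 21 of the 25 ligands. Lefty1 and Lefty2, which encode Nodal inhibitors, are classed here as ligands. Counted as antagonists instead, they gave 5 of 6 antagonists and 20 of 23 ligands with an accessible promoter in both replicates. In whole embryos, fewer cells with an open site and a less open site in each cell cannot be told apart.

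The 4 genes outside this count were all classed as ligands, Lefty2 among them. Bmp10, a ligand of the developing heart, and Gdf3, a Nodal-like ligand of the early embryo, had no promoter peak in either replicate. Lefty2, a secreted inhibitor of Nodal, had a promoter peak in replicate 2 alone, with a score of 61 on the deposited scale of 1 to 150. That score stood at percentile 63.5 of the replicate 2 list. Inha, the alpha subunit of inhibin, also had one in replicate 2 alone, with a score of 44 (percentile 40.5). A hotspot, the wider enriched region that the authors also deposited, reached the Inha promoter in both replicates, with a width of 1804 bp in replicate 1 and 2033 bp in replicate 2. The start of another gene, Obsl1, lies 625 bp from that of Inha, and which of the pair the opening belongs to cannot be told apart here. With a window of 1000 bp in place of 500 bp, Inha counted as accessible in both replicates.

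The promoters of the 47 genes fell along a wide range of CpG content, and the sequences just before the start of 4 of them are shown as examples, not as its extremes. Each is the 150 bases before the RefSeq start, written 5′ to 3′ on the gene's strand, with every CpG in capitals. Bmp10 (chr6:87428844-87428993, GRCm38) and Nodal (chr10:61417822-61417971) hold 3 and 2 CpGs, Gdf11 (chr10:128891719-128891868) holds 23 and the activin receptor gene Acvr2a (chr2:48813959-48814108) holds 31.
Bmp10: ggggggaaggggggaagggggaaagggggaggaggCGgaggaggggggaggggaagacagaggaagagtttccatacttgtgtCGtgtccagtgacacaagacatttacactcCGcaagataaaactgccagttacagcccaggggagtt
Nodal: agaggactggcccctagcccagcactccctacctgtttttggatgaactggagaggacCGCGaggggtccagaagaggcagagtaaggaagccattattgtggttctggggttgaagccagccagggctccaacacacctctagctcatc
Gdf11: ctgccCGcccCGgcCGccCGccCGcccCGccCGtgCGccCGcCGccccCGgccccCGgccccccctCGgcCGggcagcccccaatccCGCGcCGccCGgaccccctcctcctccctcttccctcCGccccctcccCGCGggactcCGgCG
Acvr2a: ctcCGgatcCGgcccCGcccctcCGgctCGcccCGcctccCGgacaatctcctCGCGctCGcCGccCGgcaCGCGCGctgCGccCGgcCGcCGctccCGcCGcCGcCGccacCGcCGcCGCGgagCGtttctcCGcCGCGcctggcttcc

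The CpG ratio, the observed number of CpGs over the number expected from base composition within 500 bp of the 5′-most TSS, differed in its median between the roles. The median was 0.54 for ligands, 0.88 for receptors, 0.92 for Smads and 0.77 for antagonists, beside 0.56 over all genes. The ranges overlapped, since 12 of the 25 ligands lay above the all-gene median, where all genes of the other roles lay too. At or below the all-gene median stood 13 genes, every one classed as a ligand, Lefty1 and Lefty2 included. Of these, 9 had an accessible promoter in both replicates. Across all 10864 genes in that range the share was 42.3%. A peak at the 5′-most TSS itself, around which the ratio was taken, was found in both replicates at 8 of the 13, without Lefty1, beside 32.5%. Above the median stood the other 34, all 34 with an accessible promoter, where 98.4% of all such genes had one. Thus for genes with CpG-rich promoters the count of members is close to its background.

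Bmp4, a signal for mesoderm, limb and eye, had the ratio 0.44 at its 5′-most TSS, and the best peak within 500 bp of that TSS scored 97 in replicate 1 and 109 in replicate 2. Its best promoter peak lay at another start, 3238 bp away, where the ratio was 0.71. That peak scored 129 and 134, at percentiles 96.8 and 97.2 of their lists. Nodal, the ligand of mesoderm induction and the left-right axis, scored 72 and 89, and Gdf1, which acts with Nodal, scored 86 and 83. Lower still were Lefty1, the second Nodal inhibitor, with 45 and 61, and Gdf5, a ligand of joint formation, with 38 and 58. The Lefty1 peak also lay at another start (ratio 0.53) than the 5′-most TSS (0.27), which had no peak in either replicate. Both replicates placed Bmp4 above Lefty1 and Gdf5 at either of its starts. Among CpG-rich ligands Bmp8b, a ligand known from germ cell formation, stood apart with a ratio of 0.85 and scores of 38 and 50. Bmp8b and Gdf5 no longer counted as accessible when the better-scoring 50% of each list was used.

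Receptor and Smad promoters scored within a narrow, high range. The best-scoring promoter peak had a median percentile of 97.5 in replicate 1 and 97.2 in replicate 2 for receptors and of 98.4 and 98.1 for Smads. The medians were 89.7 and 89.9 for ligands, 92.9 and 92.4 for antagonists, and 95.8 and 96.3 for all genes with a promoter peak. The highest was the promoter of Acvr2b, a type II receptor for activins and Nodal, with scores of 146 and 144. Tgfbr1, the type I receptor for TGF-beta, had 141 and 144, level with Acvr2b in replicate 2. Smad9, a BMP-responsive receptor Smad, was lowest among the Smads with 93 and 116, and Grem1, a BMP antagonist of the limb bud, was lowest among the antagonists with 79 and 104. Over the 43 genes with a promoter peak in both replicates, CpG ratio at the 5′-most TSS and mean score percentile had a Spearman rho of 0.570, beside 0.495 over 15280 genes. At 4 of the 43 (Bmp4, Lefty1, Tgfb1 and Tgfb2) the best peak lay outside the 500 bp around that TSS in at least 1 replicate. With the ratio taken at the start nearest the best peak, an alternative chosen after seeing the data, rho was 0.617, beside 0.536. Genes in such a comparison share the same libraries and are not independent replicates.

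**Figure D1:**
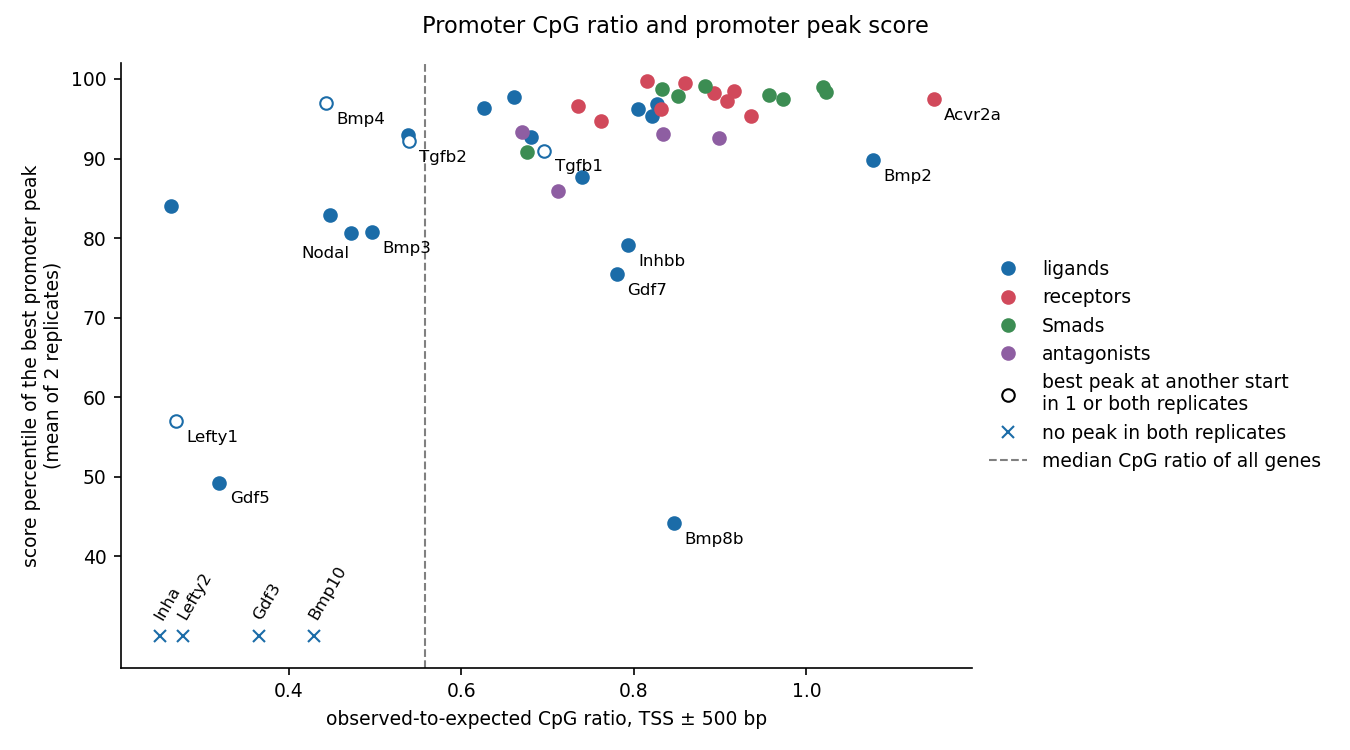
Score percentile of the best promoter peak (mean of 2 replicates, within each list) against the observed-to-expected CpG ratio within 500 bp of the 5′-most TSS, 1 point per gene, coloured by role, open where the best peak lies at another start in 1 or both replicates (Bmp4, Lefty1, Tgfb1 and Tgfb2). Crosses at the bottom mark the 4 ligands without a peak in both replicates (their height is not a score), and the dashed line is the all-gene median ratio of 0.56, left of which only ligands lie.

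Several of these genes opened at more than 1 start. After TSSs were merged into clusters, 26 of the 47 genes had more than 1 annotated cluster, a share not counted over all genes. Of the 47, 13 had 2 or more clusters with a peak in both replicates, beside 18.4% of all genes. Tgfb1, a ligand with a broad role in matrix and immune control, and the inhibitory Smad gene Smad7 each had 3 accessible clusters. The other 11 had 2, and these were Bmp4, Bmp6, Tgfb2, Bmpr1a, Bmpr1b, Acvr2b, Tgfbr3, Smad3, Smad5, Smad6 and the activin-binding antagonist gene Fst. Of all 47, Inha and Acvr1, a type I BMP receptor gene, had another protein-coding TSS within 1000 bp (14.6% of all genes). For Acvr1 that was Upp2, at 141 bp, so reads at its promoter cannot be assigned to either gene. Long non-coding RNA starts lay within 1000 bp of 7 genes, the nearest at Tgfb2 (5 bp) and Fst (77 bp). The share of all genes with such a start was not counted, so whether 7 is unusual is not known. Close relatives shared no promoter sequence at the word length examined: of 966 words of 36 bases around the start of Bmp8a, 0 occurred around that of Bmp8b, and the same held for Lefty1 and Lefty2.

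Distal peaks were those more than 1000 bp from every protein-coding TSS. They were counted in each gene's territory, the stretch of genome for which that gene's 5′-most TSS is the closest of all such TSSs of protein-coding genes, and given per 100 kb of assembled sequence. The median density of the 47 genes was 9.50 in replicate 1 and 11.9 in replicate 2, beside 5.29 and 6.26 over all genes. With each gene's 2 replicates averaged first, the median was 10.3, beside 5.89 over all genes. Above the 75th percentile of all genes (10.9 per 100 kb) stood 23 of the 47, where 25% of all genes stand, and above the 90th percentile (17.0 per 100 kb) stood 8, where 10% stand. In both replicates 36 genes exceeded the all-gene median of that replicate, as did 43.7% of all genes.

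By role, the median density was 12.7 for Smads, 11.6 for ligands, 9.998 for receptors and 6.11 for antagonists, each the median of the genes' means over both replicates. The medians within replicate 1 and replicate 2 were 10.83 and 15.2 for Smads, 11.3 and 12.3 for ligands, 8.98 and 10.8 for receptors, and 6.61 and 8.99 for the 4 antagonists, for which the median of means lies below both. The count above the 75th percentile was 5 of 8 Smads, 13 of 25 ligands, 4 of 10 receptors and 1 of 4 antagonists. Short territories give coarse densities, since 1 peak more moves them far, and 20 of the 47 territories were under 100 kb. In the 27 of at least 100 kb, the median was 11.3, beside 7.02 over all genes with such territories. There, Smads had 22.3 (5 genes), ligands 11.7 (13), receptors 9.24 (6) and antagonists 6.18 (3). Antagonists had the lowest median in each of these sets. With Lefty1 and Lefty2 counted as antagonists, the median over all territories was 7.03 for 6 antagonists and 11.6 for 23 ligands. The order of Smads and ligands was not stable: ligands were higher in replicate 1 over all territories, and also where territories were limited to 100 kb around the TSS (11.6 against 10.98). With 3 to 13 genes a role in the long territories, these medians rest on few genes. Spearman's rho between the densities of replicate 1 and replicate 2 was 0.958 over the 27 genes and 0.719 over all 47.

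**Figure D2:**
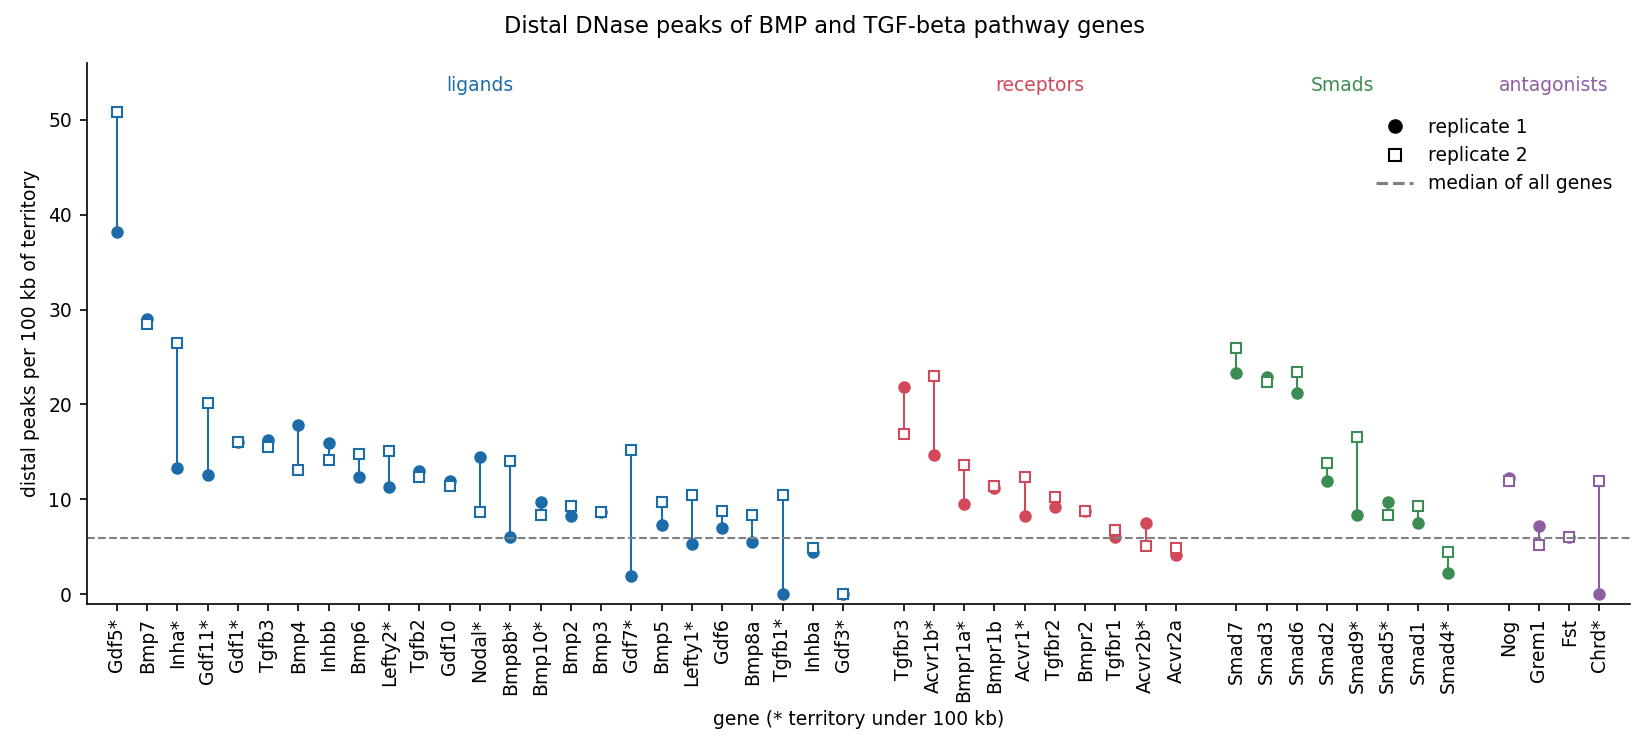
Distal peaks per 100 kb of territory for each of the 47 genes, by role and in order of the mean; filled circles are replicate 1, open squares replicate 2, a star marks a territory under 100 kb, and the dashed line is the all-gene median of 5.89. Most genes lie above the line, the pairs of points are far apart mainly for starred genes, and Smad7, Smad3 and Smad6 are high in both replicates.

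Among BMP ligands, Bmp7, required for kidney and eye development, had the highest density. Its territory of 214 kb held 62 distal peaks in replicate 1 and 61 in replicate 2, or 28.7 ± 0.33 per 100 kb (SD, n = 2). Of these, 18 in each replicate lay in the gene itself and 40 in each lay beyond its 3′ end. The densest stretch of 20 kb held 11 peaks found in both replicates and ran from 138 to 157 kb past the TSS, while the all-gene median for such a stretch was 2. Bmp4 followed with 34 and 25 distal peaks, of which 28 and 21 lay upstream of the gene, and its densest stretch of 8 peaks lay between -185 and -175 kb. Bmp2, a close relative of Bmp4 with roles in heart and bone, had more peaks, 66 and 75, spread over 804 kb, so that its density was 8.77 ± 0.79. The lowest density of the BMP ligands was 6.93 ± 1.96 at Bmp8a (10 and 15 peaks), and all of its distal peaks lay upstream, 10 and 12 of them inside the neighbouring Macf1.

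The remaining BMP ligands lay between these. Bmp6, known from iron control and cartilage, had 20 and 24 distal peaks, and Bmp5, a skeletal ligand, had 12 and 16, of which 9 and 14 were inside the gene. Bmp3, a BMP that counters the others, had 21 in each replicate. Bmp8b had 3 and 7. Bmp10, with no promoter peak, still had 7 and 6 distal peaks in a territory of 72.2 kb, a density of 9.01 ± 0.98, above the all-gene median in both replicates.

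GDF ligands ran from the highest to the lowest density of all 47 genes. Gdf5 reached 44.5 ± 8.99, but its territory spans 7.87 kb and the value rests on 3 peaks in replicate 1 and 4 in replicate 2. When only peaks beyond 2500 bp from a TSS were counted it was 25.4, below Bmp7 with 27.6. Gdf11, a signal for the pattern of the trunk and tail, had 5 and 8 distal peaks (16.4 ± 5.35). Gdf3 had none in either replicate in 12.0 kb. Gdf6, which acts with Gdf5 in joints, showed the other extreme of length, with 42 and 53 peaks over 603 kb (7.88 ± 1.29), of which 25 and 34 lay beyond its 3′ end. Gdf10 (BMP3b) had 21 and 20 peaks, 20 and 17 of them upstream, and Gdf1 had 3 in each replicate, none of them beyond 2500 bp from a TSS. Gdf7, a ligand of the roof plate of the neural tube, had the largest SD of the 47 genes (8.54 ± 9.40), with 1 distal peak in replicate 1 and 8 in replicate 2. Of those 8, 7 lay in the gene itself, where replicate 1 had none.

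Nodal and its inhibitors had few distal peaks in short territories. Nodal had 5 and 3 (11.6 ± 4.09), Lefty2 3 and 4 (13.2 ± 2.66) and Lefty1 1 and 2 (7.88 ± 3.72). All 3 Nodal peaks of replicate 2 lay in the gene itself, as did 3 of the 5 in replicate 1. Of the TGF-beta ligands, Tgfb3, needed for palate closure, had 21 and 20 peaks (15.9 ± 0.55), of which 18 and 16 lay inside the neighbouring gene Ttll5. Tgfb2, with roles in heart and skeleton, had 41 and 39 (12.7 ± 0.45), while Tgfb1 had 0 and 2 in 19.2 kb. The Tgfb1 promoter nonetheless held 5 peaks in each replicate.

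The inhibin and activin subunits were unlike each other. Inhbb, which encodes the beta-B subunit, had 36 and 32 distal peaks (15.1 ± 1.25), with 9 shared peaks in the stretch from -1.48 to 17.3 kb around its start. Inhba, which encodes beta-A, had more peaks, 50 and 54, yet one of the lowest densities (4.66 ± 0.25), since its territory spans 1116 kb. Inha had 1 and 2 in 7.54 kb, and its value of 19.9 ± 9.38 rests on those.

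**Figure D3:**
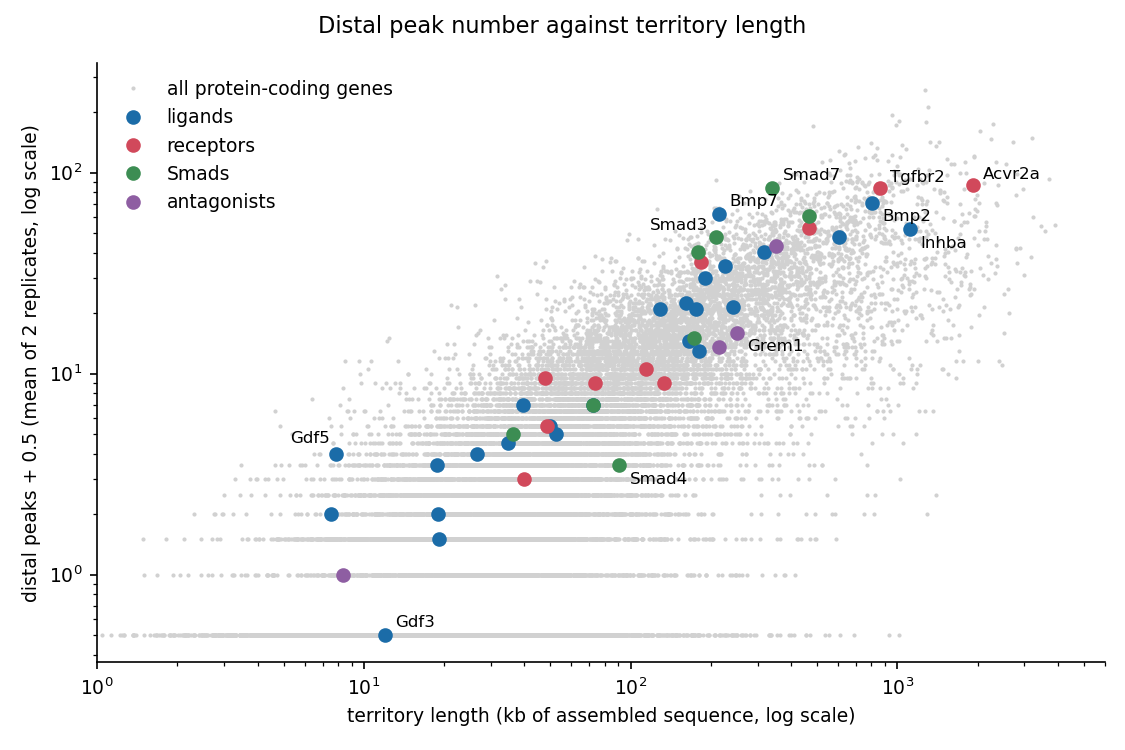
Distal peaks (mean of 2 replicates, plus 0.5) against territory length in kb, both on log scales, for all protein-coding genes (grey) and the 47 pathway genes (coloured by role). Bmp7, Smad7 and Smad3 lie at the upper edge of the grey cloud for their territory length, whereas Acvr2a and Inhba have many peaks in very long territories and lie within it.

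Several receptor genes held most of their distal peaks within the gene itself. Tgfbr3, the betaglycan coreceptor that presents TGF-beta ligands, had 40 peaks in replicate 1 and 31 in replicate 2, of which 39 and 30 lay inside the gene (19.4 ± 3.47 per 100 kb). Bmpr1b, a type I BMP receptor of cartilage condensations, had 52 and 53, with 40 and 37 inside the gene (11.3 ± 0.15). Bmpr1a, the broadly used type I BMP receptor, had 7 and 10, and Bmpr2, the type II BMP receptor, had 10 in each replicate, 9 of them in the gene both times. All distal peaks of Acvr1, 4 and 6, were inside the gene. Acvr1b, the type I activin receptor, had the highest density of the type I receptors, 18.8 ± 5.91 from 7 and 11 peaks. Tgfbr1 had the lowest of that class, 6.39 ± 0.53 from 8 and 9.

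By contrast, the type II receptors Acvr2a and Tgfbr2 had most of their distal peaks upstream. Acvr2a had 79 and 94, of which 76 and 87 lay upstream, in a territory of 1916 kb that reaches towards Zeb2, and its density of 4.51 ± 0.55 was below the all-gene median of 5.89. Tgfbr2, the TGF-beta-binding receptor, had 79 and 88 (9.71 ± 0.74), of which 62 and 65 lay upstream, 26 and 35 of those inside the neighbouring gene Rbms3. Acvr2b had 3 and 2 (6.30 ± 1.78). Nearness to a TSS assigns a peak to a territory and does not show which gene it acts on.

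Among the Smad genes, Smad7, which encodes an inhibitory Smad that blocks the type I receptor, had 79 and 88 distal peaks in 339 kb (24.6 ± 1.88), with 16 shared peaks in the stretch from 126 to 139 kb past its TSS. That was the highest value for a stretch of 20 kb among the 47 genes. Of its distal peaks, 32 and 35 lay in the neighbouring gene Ctif and 16 and 19 in Dym. Smad6, the inhibitory Smad that acts mainly on BMP signals, had 38 and 42 (22.3 ± 1.58), of which 18 and 20 lay in the gene itself. Smad3, a receptor Smad of the TGF-beta and activin branch, is the neighbour of Smad6 on chromosome 9, and had 48 and 47 (22.7 ± 0.34), of which 30 in each replicate lay upstream. Smad2, which acts in the same branch as Smad3, had 56 and 65 (12.9 ± 1.36), and 16 and 20 of these lay inside Zbtb7c.

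The receptor Smads of the BMP branch and the common Smad had fewer distal peaks. Their territories were also shorter, although that of Smad1, at 172 kb, was close to the 180 kb of Smad6. Smad1 had 13 and 16 (8.41 ± 1.23), Smad5 7 and 6 (9.01 ± 0.98), and Smad9 3 and 6 in 36.1 kb (12.5 ± 5.87), a density close to that of Smad2. Smad4, the partner of all receptor Smads, had 2 and 4 in 90.7 kb (3.31 ± 1.56), the lowest density of any Smad and below the all-gene median in both replicates. Its promoter peak, at percentiles 97.9 and 98.8, ranked with that of Smad7, at percentiles 98.1 and 97.7. A well-ranked promoter peak thus came with many distal peaks at one Smad gene and few at the other. Whether promoter peak rank goes with distal density over the 47 genes was not tested. Promoter CpG ratio, a different measure, had a Spearman rho of -0.060 with distal density over the 47 genes.

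Of the antagonists, Nog, whose product noggin binds BMPs in the notochord and joints, had 43 and 42 distal peaks (12.1 ± 0.20), none in the gene itself and 12 and 11 inside Ankfn1. Grem1, whose limb enhancers are known to lie within the adjoining gene Fmn1, had 18 and 13 (6.18 ± 1.41), of which 13 and 11 were inside Fmn1. Fst had 13 in each replicate, 12 and 11 of them upstream. Chrd, which encodes the BMP-binding protein chordin, had 0 and 1 in 8.38 kb. Nog alone exceeded the all-gene median in both replicates.

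Stretches of 20 kb with at least 8 shared distal peaks occurred in the territories of 8 of the 47 genes, beside 4.17% of all genes. Besides Smad7 with 16, Bmp7 with 11 and Inhbb with 9, they were Bmp4, Bmpr1b, Tgfbr3, Smad3 and Smad6, each with 8. In Bmpr1b the stretch ran from 233 to 250 kb past the TSS and in Tgfbr3 from 122 to 141 kb, whereas in Smad6 it lay between -3.71 and 3.93 kb, around the start. Long territories offer more stretches to choose from, and these counts were not corrected for length.

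**Figure D4:**
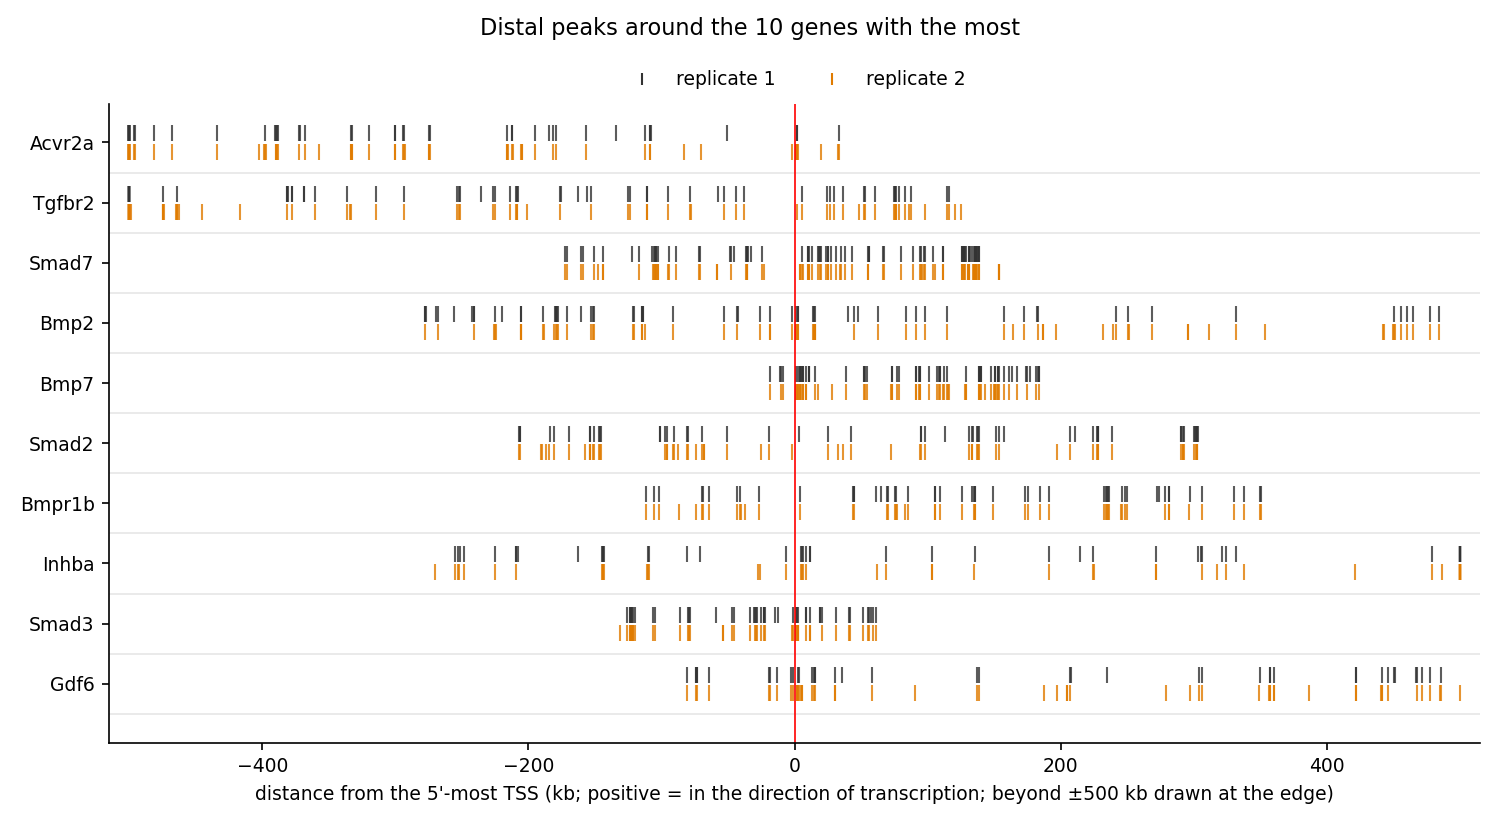
Positions of distal peaks, in kb from the 5′-most TSS and positive in the direction of transcription, for the 10 genes with the most; dark ticks are replicate 1, orange ticks replicate 2, and peaks beyond 500 kb are drawn at the edge. Peaks of Acvr2a lie almost all upstream, those of Bmp7 mostly downstream, and Smad7 has a cluster between 126 and 139 kb in both replicates.

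In total, the 47 territories held 1077 distal peaks in replicate 1 and 1161 in replicate 2. These lay farther from their gene's start than distal peaks did elsewhere: the median distance was 92.3 kb and 91.3 kb, beside 51.5 kb and 50.8 kb over all genes. Their territories were also longer, with a median of 162 kb beside 46.95 kb, and the part of territory length in the distances was not tested. The share inside the gene itself was 26.6% in both replicates, beside 31.8% and 32.2%. Receptors had 43.3% and 40.8% of distal peaks in the gene itself, ligands 20.5% and 21.03%, Smads 24.8% and 26.6%, and antagonists 5.41% and 2.90%. Many ligand and antagonist genes are short, and how far gene length sets these shares was not tested.

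Of the replicate 1 distal peaks 76.9% overlapped a replicate 2 peak (95% Wilson interval 74.3 to 79.3), beside 78.0% over all distal peaks. In the other direction the share was 71.7% (69.1 to 74.3), beside 67.9%. The intervals cover counting error only. Distal density was higher in replicate 2 at 28 genes (40.8% of all genes), higher in replicate 1 at 14 (18.7%) and equal at 5. The rest of all genes were higher in neither replicate, a larger share than the 5 genes here. Both directions therefore take a larger share here than over all genes. These counts do not show a lean to replicate 2 particular to the pathway genes. Scores of distal peaks at Smad genes ranked higher, with a median percentile of 60.7 and 60.3, than over all genes, with 43.9 in each replicate. Most of those peaks belong to Smad2, Smad3, Smad6 and Smad7, and the gene medians of Smad1 (38.2 and 43.1) and Smad4 (31.9 and 18.9) lay below 43.9. At ligands the medians were 42.1 and 45.5, at receptors 42.1 and 43.9 and at antagonists 30.8 and 38.7.

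To show what such sites look like, the best-ranked distal peak found in both replicates is printed for genes with the most distal peaks or the highest density. Smad7, among the highest on both counts, is not shown. All are on the forward strand of GRCm38, 150 bases each, with 3 Smad elements in capitals wherever they occur on either strand. The short element is CAGAC (read as GTCTG on the other strand), its palindromic form is GTCTAGAC, and the GC-rich element bound by BMP-branch Smads is GGCGCC. The Bmp7 peak (chr2:172825296-172825445) lies between genes 115 kb from the start, with scores of 112 and 125. The Bmp2 peak (chr2:133614796-133614945), 62.7 kb from the start and also between genes, scored 86 and 100. The Smad3 peak (chr9:63803356-63803505) is 45.4 kb from the start, between genes, and the Smad6 peak (chr9:63959236-63959385) lies 62.7 kb from the start inside the gene. The Tgfbr2 peak (chr9:116138736-116138885) is inside the gene, 36.5 kb from its start, and the Gdf5 peak (chr2:155949456-155949605) is 4.16 kb from the start, between genes. The Acvr2a peak (chr2:48539056-48539205), with scores of 88 and 94, lies 275 kb from the start, between genes. The Bmp2 peak holds 2 copies of the short element and the Smad6 and Tgfbr2 peaks 1 each, while the other 4 hold none of the elements.
Bmp7: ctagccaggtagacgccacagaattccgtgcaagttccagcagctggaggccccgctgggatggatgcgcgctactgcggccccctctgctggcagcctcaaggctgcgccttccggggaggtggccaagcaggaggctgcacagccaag
Bmp2: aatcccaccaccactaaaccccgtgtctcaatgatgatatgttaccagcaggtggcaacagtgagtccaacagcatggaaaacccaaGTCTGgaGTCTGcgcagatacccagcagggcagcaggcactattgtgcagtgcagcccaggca
Smad3: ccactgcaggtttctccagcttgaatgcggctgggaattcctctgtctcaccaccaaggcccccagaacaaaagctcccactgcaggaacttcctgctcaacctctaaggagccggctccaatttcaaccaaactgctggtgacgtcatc
Smad6: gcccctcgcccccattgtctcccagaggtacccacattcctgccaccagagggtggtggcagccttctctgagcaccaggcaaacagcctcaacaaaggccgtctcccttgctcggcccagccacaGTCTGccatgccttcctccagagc
Tgfbr2: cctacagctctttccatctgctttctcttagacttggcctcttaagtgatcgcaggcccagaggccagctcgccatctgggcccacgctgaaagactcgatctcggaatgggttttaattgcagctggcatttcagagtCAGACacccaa
Gdf5: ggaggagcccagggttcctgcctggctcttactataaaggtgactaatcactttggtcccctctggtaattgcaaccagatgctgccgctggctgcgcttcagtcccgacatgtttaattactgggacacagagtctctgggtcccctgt
Acvr2a: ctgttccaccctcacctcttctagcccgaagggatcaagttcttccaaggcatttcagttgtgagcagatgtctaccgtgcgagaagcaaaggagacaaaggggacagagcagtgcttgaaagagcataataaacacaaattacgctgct

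Smad elements were about as common in the distal peaks of these genes as elsewhere. CAGAC occurred in 297 of 828 shared distal peaks, 35.9% beside 35.1% of all 125450. GGCGCC occurred in 25, 3.02% beside 3.35%. GTCTAGAC occurred in 1, at Gdf10, 0.121% beside 0.183%, and the composite element, GGCGCC followed after a short gap by GTCT, in 0 of 828, beside 0.0263%. Each was searched on both strands, GTCTAGAC holds GTCT and its reverse, and the composite contains GGCGCC. The 3 shares above 0 had 95% Wilson intervals that hold the value over all distal peaks.

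At promoters, the RefSeq table (GRCm38) held 38 windows for 32 of the 47 genes, each from 250 bases before the start to 50 after. GGCGCC was in 11 of them, 28.9% (95% Wilson interval 17.0 to 44.8), beside 11.9% of 32851 windows. That interval covers counting error only and treats windows of the same gene as independent. The promoter CpG ratio of all 47 genes was also higher, with a median of 0.78 beside 0.56. Its part in the share of GGCGCC was not tested. CAGAC was in 18 windows, 47.4% beside 49.6%. GTCTAGAC was in 1, that of Smad6, beside 0.213%, and the composite in 0, beside 0.0731%. A match is a run of letters and does not show binding.

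Of 57 other genes of the pathway, 44 had an accessible promoter in both replicates (70.3% of all genes), 45 in replicate 1 and 50 in replicate 2. All 10 known targets did, as did 9 of 10 intracellular modulators, 16 of 19 further secreted modulators and 7 of 10 further receptors and coreceptors. Among further ligands only 2 of 8 did. Those lacking a promoter peak in at least 1 replicate included Amh, the hormone that removes the Müllerian duct, Mstn, the brake on muscle growth, and Gdf2 and Gdf15. The others named by the same rule were Amhr2 (the Amh receptor), the Nodal coreceptor Cfc1 and Hfe2 (hemojuvelin), the secreted antagonists Sost, Cer1 and Dand5, and Foxh1, the nuclear partner of Smads in Nodal signalling. The count of 2 in 8 further ligands stands beside 21 of 25 ligands among the 47 genes, and the difference was not tested. The median promoter CpG ratio was also lower in the further ligands, 0.29 beside 0.54. Its part in the difference was not tested.

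Distal density among the 57 had a median of 11.7 per 100 kb, and 33 stood above the 75th percentile (25% of all genes) and 23 above the 90th (10%). Their territories were short, with a median of 81.6 kb, so many of these densities are coarse. Of the 23, only Fstl1, Zfp423, Pmepa1, Msx1 and Msx2 had territories of at least 100 kb. Id1 and Id3, classic BMP target genes that hold back differentiation, had the highest densities of the targets. Id1 had 14 and 15 distal peaks in 33.6 kb, or 43.2 on average, and Id3 had 25 and 21 in 59.5 kb, or 38.7. Medians by role were 15.7 for targets, 18.96 for intracellular modulators, 17.3 for further ligands, 10.6 for receptors and coreceptors and 8.94 for secreted modulators. Within replicate 1 and replicate 2 they were 10.8 and 21.4 for targets, 20.4 and 17.0 for intracellular modulators, and 15.3 and 21.4 for further ligands. The order of these roles was thus not stable. Receptors and coreceptors had 10.2 and 12.2, and secreted modulators 7.89 and 10.1. The highest in the other roles were Foxh1 (52.2) and Tgif2 (29.1), Amh (40.3) and Gdf15 (36.2), Hfe2 (38.8) and the Nodal coreceptor gene Tdgf1 (28.8), and Dand5 (28.9) and Sost (23.4). Foxh1, Amh, Dand5 and Tdgf1 have territories under 20 kb, with 2 to 6 distal peaks per replicate, and Gdf15 had 6 and 10 in 22.1 kb. Of these densest genes, Foxh1, Amh, Gdf15, Hfe2, Dand5 and Sost lacked a promoter peak in at least 1 replicate.

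**Figure D5:**
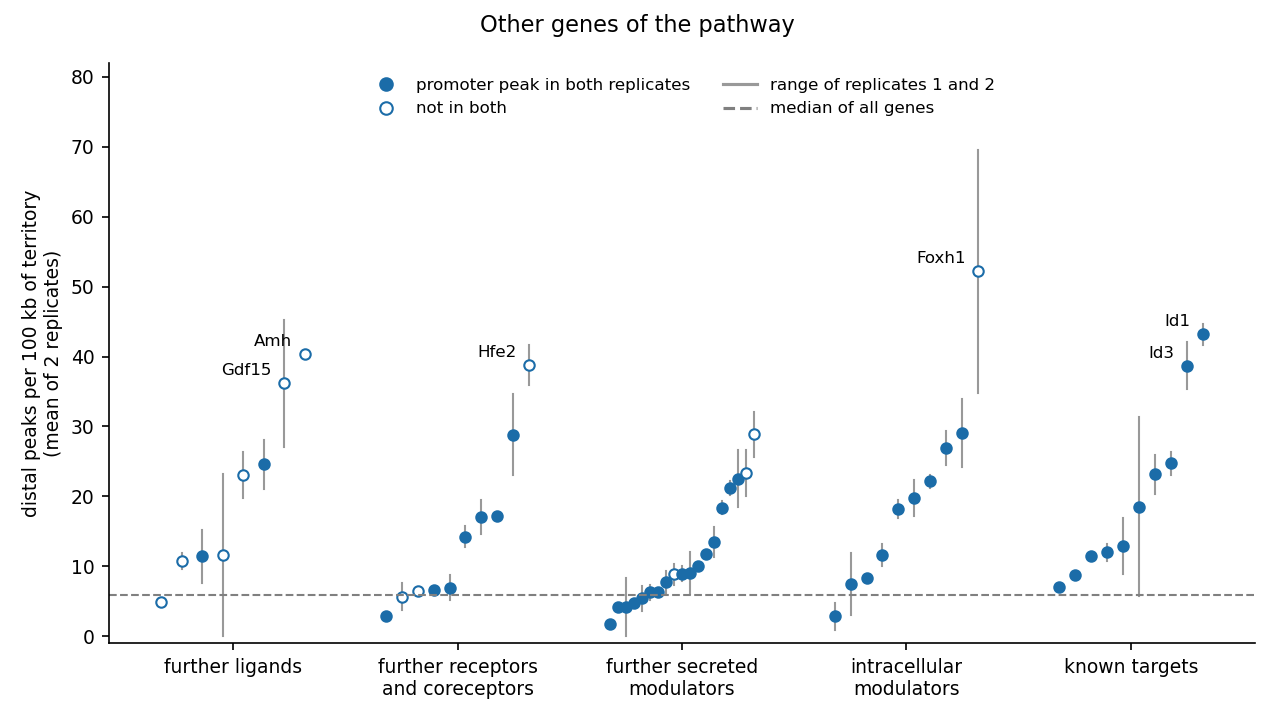
Distal peaks per 100 kb of territory for 57 other pathway genes, grouped by role and ordered within each; points are means of 2 replicates, vertical lines join the replicates, open points lack a promoter peak in at least 1 replicate, and the dashed line is the all-gene median of 5.89. All 10 known targets lie above the line with filled points, and most further ligands have open points.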

How the data were processed

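Per the labels, DNase-seq was run on 2 biological replicates of whole embryos. The authors deposited, for each, peaks with a score in whole numbers between 1 and 150 and hotspots with a −log10 q value, by their file format, between 1.30 and a ceiling of 100. How the score was built is not stated in the labels or file headers. Per the accompanying text, each replicate's mm10 alignments gave 1 list of each kind, without pooling. Aligner, peak caller and versions: not given in the sources used here.

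Genes and TSSs came from GENCODE release M21. Python 3.11.15 with numpy 2.4.6, pandas 2.3.3 and scipy 1.17.1 was used, and figures were drawn with matplotlib 3.10.9. Scores were used as percentiles within a list. Shared peaks overlapped one from the other list by 1 bp or more. With 1 group and no read counts, there is no test between conditions: counts and medians stand beside those over all 21728 genes. On simulated data, promoter calls and peak overlaps were required to match a direct count. Distal counts were compared with a direct count without that requirement.

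The 47 genes, the roles and the lists were chosen with earlier results of these data known. Of the 47, values are given for genes without a promoter peak in both replicates, the 2 of highest and the 1 of lowest distal density in each class, the 10 with the most distal peaks and those with the most accessible TSS clusters, and the rest more briefly. Among other pathway genes, those named are the 2 densest in each role and at most 4 that lack a promoter peak in 1 or both replicates, taken in list order. The CTCF-like motif in the closing section was added after the printed sequences had been read. Alternatives covered the TSS window, the TSSs used, the score threshold, the overlap, the distal distance, the territory and each replicate alone. A further one counted Lefty1 and Lefty2 as antagonists.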

Additional observations from a re-analysis of the deposited data

How the results depend on the processing

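No paired analysis was possible because both samples belong to 1 group and no groups were compared. The count of the 47 genes with a promoter peak in both replicates stayed between 41 and 45 over all alternatives. That of the 57 other pathway genes stayed between 43 and 54, the latter with a window of 2500 bp. The share of all genes, 70.3% in the main setting, moved as well. It was 65.2% with the 5′-most TSS alone and 66.9% in the better-scoring 50% of peaks. Without replicate 1 it was 72.1%, and with the window of 2500 bp 75.04%. Single genes moved as follows: Inha was gained with windows of 1000 or 2500 bp, Lefty1 was lost when the 5′-most TSS alone was used, Bmp8b and Gdf5 were lost in the better-scoring 50% of peaks, and Lefty2 and Inha were gained without replicate 1. Median distal density per 100 kb fell with stricter peak sets, also over all genes. With shared peaks it was 7.32 for the 47 genes (4.12 over all genes), 7.96 for ligands, 6.75 for receptors, 8.53 for Smads and 3.92 for antagonists. With an overlap of at least 75 bp it was 6.93 (3.92), 6.93, 6.69, 8.10 and 3.49, and in the better-scoring 50% 5.43 (1.69), 5.97, 5.15, 6.46 and 2.14. Counting only peaks beyond 2500 bp from a TSS gave 9.01 for ligands (4.49 over all genes). With 1 replicate at a time, the range was 9.50 to 11.9 for the 47 genes, 11.3 to 12.3 for ligands, 8.98 to 10.8 for receptors, 10.8 to 15.2 for Smads and 6.61 to 8.99 for antagonists. The antagonist median lay below the all-gene median with shared peaks and with the 75 bp overlap, and above it in the better-scoring 50%. The overlap of distal peaks was 70.8% in replicate 1 and 65.7% in replicate 2 at 75 bp (73.4% and 63.9% over all genes), and 93.3% and 90.6% in the better-scoring 50% (95.9% and 91.9%). Depth is unknown, territories assign peaks by nearness alone, and a missing peak is not shown to be closed chromatin.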

Other observations

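Of the distal peaks printed in the report, those of Bmp7, Bmp2 and Smad6 contain CCA, AG and GG in this order with 2 unspecified bases between each, a pattern that is the core of the element bound by the insulator protein CTCF, a site type known to be open in most cell types. In the Smad6 peak it reads CCACCAGAGGG (chr9:63959278-63959288, forward strand), in the Bmp2 peak CCAGCAGGTGG (chr2:133614840-133614850, forward strand) and in the Bmp7 peak CCAGCAGAGGG (chr2:172825378-172825388, reverse strand), which also holds CCAGCAGCTGG (chr2:172825332-172825342, forward strand). The pattern was looked for after those sequences had been read, so its presence in them is no finding. It occurred in 88 of 828 shared distal peaks of the 47 genes, 10.6% (95% Wilson interval 8.71 to 12.9), beside 14.3% of all 125450. By role the share was 11.0% at ligands, 11.4% at receptors, 8.25% at Smads and 14.0% at antagonists. Among the best-scoring 10% of the shared distal peaks of the 47 genes it was in 17 of 83, and among the lower-scoring 50% in 30 of 430, which is 20.5% and 6.98%. The same shares over all genes were 21.7% and 10.02%. Among single genes Smad6 had it in 7 of 31 shared distal peaks and Smad7 in 4 of 66. A match shows letters and no binding.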
